A study of Caenorhabditis elegans with 16 samples.

Results

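The RNA levels of 10 genes of the cullin RING ubiquitin ligase machinery were followed through an auxin time course in dissected Caenorhabditis elegans germline tumors. The genes were chosen by name, with earlier results of these data known, and they are 10 of the 46536 genes in the deposited tables. They fall into 4 roles. The cullin scaffolds are cul-1, cul-2, cul-3 and cul-4, and the RING subunit is rbx-1. The adaptors are skr-1, skr-2 and elc-1, and the substrate receptors are zyg-11 and lin-23.

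All animals carried gld-1(q485) together with gld-2(q497), the glp-1 allele ar202, the altered gene lag-1(oz536oz537) and the transgene ieSi64[gld-1p::tir1::mRuby], were of the Bristol strain, and were 1-day-old adults that had grown for 48 h at 25 °C from bleach-synchronised first-stage larvae. Auxin at 1 mM had been present for 2 h, 4 h or 48 h before dissection, and controls had 0 h of auxin. Each group had 4 libraries, described as biological replicates, and the sources used here do not say how each was collected, so the spread that p-values rest on is that between libraries, which may be technical. TIR1 was driven by the gld-1 promoter, a germline promoter. Controls carried the same alleles and the same TIR1 transgene, so the comparisons are between times in auxin and not between animals with and without TIR1. No group had auxin with an unaltered lag-1 gene, the change made in lag-1 is not described in the labels, and protein was not measured. In bulk tissue, fewer cells of a type and less RNA per cell cannot be told apart.

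A cullin RING ligase attaches ubiquitin to proteins and so marks them for the proteasome. The cullin is a rigid scaffold: one end holds the small RING protein RBX1, which recruits the ubiquitin-loaded enzyme, and the other end holds an adaptor and an exchangeable receptor that picks the substrate. CUL-1 uses SKP1-type adaptors (the SKR proteins in worms) with F-box receptors, CUL-2 uses elongin C (ELC-1) with receptors such as ZYG-11, CUL-3 binds BTB proteins, and CUL-4 uses DDB-1. TIR1 is the F-box auxin receptor of plants, and in auxin-induced degradation it joins the host cell's SKP1, CUL1 and RBX1. In the worm germline and early embryo, CUL-2 with ZYG-11 acts in meiosis and embryonic polarity, and LIN-23 is an F-box receptor that restrains cell division.

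The values were deposited in 2 tables of CPM, a unit in which the reads of every library are scaled to a common total. The larger covers 10 libraries: all 4 controls, all 4 of 48 h, and 2 h 1 and 2. The smaller covers 6: all 4 of 4 h, and 2 h 3 and 4. Comparisons were made within a table, so the 4 h libraries were set against the 2 h libraries alone. Recovered totals were 17760706 to 33888940 reads per library, and the 10 genes had between 232 and 6717 reads in each library. Ribosomal RNA took 53.3% of control 1, 51.7% of control 3 and 44.9% of 48 h 1, against 32.3% to 36.2% in the other 7 libraries of that table and 37.8% to 44.7% in the 6-library table. The 8 germline markers examined were all at or above 1 CPM in every library, with a summed level of 1410 to 2940 CPM. The sperm markers msp-3, msp-10 and msp-142 were at 0 in all 16 libraries, and the fourth, spe-9, was at 0.527 to 2.13 CPM. The 4 oocyte markers summed to 109 to 393 CPM, and summed levels were 0.50 to 13.9 CPM for 5 intestine markers, 0.999 to 3.93 CPM for 4 epidermis markers, 29.6 to 75.3 CPM for 4 muscle markers and 20.7 to 48.4 CPM for 4 neuron markers. Single genes held most of the muscle and neuron sums, unc-54 at 24.8 to 55.6 CPM and snb-1 at 17.8 to 43.1 CPM. The other muscle markers were at 0.0343 to 9.82 CPM. The other neuron markers were at 0.0335 to 5.69 CPM, with rab-3 at most at 0.271 CPM.

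In the WBcel235 annotation, cul-1 (WBGene00000836) lies on chromosome III from 10471237 to 10475129 on the plus strand, and cul-2 (WBGene00000837) lies on chromosome III from 13687269 to 13692683 on the plus strand. The cul-3 gene (WBGene00000838) spans 177417 to 185172 of chromosome V on the plus strand, and cul-4 (WBGene00000839) spans 7302101 to 7305758 of chromosome II on the plus strand. The rbx-1 gene (WBGene00004320) is on chromosome V, 9689686 to 9690522, minus strand. The 2 SKP1 homologs are next to each other on the plus strand of chromosome I, skr-2 (WBGene00004808) at 9469654 to 9470637 and skr-1 (WBGene00004807) at 9471550 to 9472641. The elc-1 gene (WBGene00001236) is on chromosome III, 1414238 to 1417190, minus strand. The receptors are both on the plus strand of chromosome II, zyg-11 (WBGene00006996) at 8017680 to 8020785 and lin-23 (WBGene00003009) at 6371303 to 6374776. Summed exon lengths were 0.602 kb for rbx-1, 0.758 kb for skr-2, 0.863 kb for skr-1 and 1.819 kb for elc-1, and between 2.589 kb (cul-1) and 3.165 kb (cul-3) for the 6 genes of cullins and receptors. Because skr-1 and skr-2 are close paralogs and it was not given in the sources used here how multiply matching reads were counted, the division of reads between them is uncertain. The cul-2 gene shares 16 exon bases with cyn-2 on the same strand, but cyn-2 was at 0.872 to 2.71 CPM. The zyg-11 gene shares 6 exon bases with hda-2 on the opposite strand and overlaps the short noncoding genes 21ur-14449 and C08B11.12, and whether strand was used in counting was not given in the sources used here.

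All 10 genes were expressed at every time, and their mean levels per kb spanned 24.4-fold. Levels per kb of exon were compared over the 7 libraries of the 10-library table that remain without control 1, control 3 and 48 h 1. The adaptor skr-2 was highest, at 276 ± 16.7 CPM per kb (SD, n = 7 libraries of 3 groups), followed by its neighbour skr-1 at 107 ± 6.62 CPM per kb and the shared RING subunit rbx-1 at 93.4 ± 7.43 CPM per kb. The cullins formed a narrow band below them, cul-1 at 54.2 ± 3.56 CPM per kb, cul-3 at 52.7 ± 4.41, cul-4 at 48.5 ± 2.86 and cul-2 at 43.0 ± 3.51. The receptors were lower, lin-23 at 31.02 ± 2.23 CPM per kb and zyg-11 at 22.4 ± 3.66, and the elongin C gene elc-1 was lowest at 11.3 ± 0.805 CPM per kb. The mean of skr-2 was thus 24.4 times that of elc-1. Neighbours in this order held their places in 7 of 7 libraries, except that cul-1 was above cul-3 in 4 of 7, so these neighbours did not differ beyond their spread.

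In the 6-library table the order began with skr-2 at 201 ± 22.9 CPM per kb (SD, n = 6 libraries of 2 groups) and ended with elc-1 at 10.4 ± 0.553 CPM per kb. There rbx-1 (99.7 ± 11.01 CPM per kb) lay above skr-1 (80.5 ± 9.45 CPM per kb) in 6 of 6 libraries. The cullins came in the order cul-4 (51.6 ± 2.75 CPM per kb), cul-3 (48.5 ± 4.41), cul-1 (44.4 ± 3.43) and cul-2 (42.4 ± 3.58), with cul-4 above cul-3 and cul-1 above cul-2 in 5 of 6 libraries each. The receptors lin-23 (30.9 ± 2.78 CPM per kb) and zyg-11 (27.4 ± 2.36 CPM per kb) were close, with lin-23 higher in 4 of 6. The tables were deposited separately, so the places of skr-1 and cul-1 are described within each table only.

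**Figure D1:**
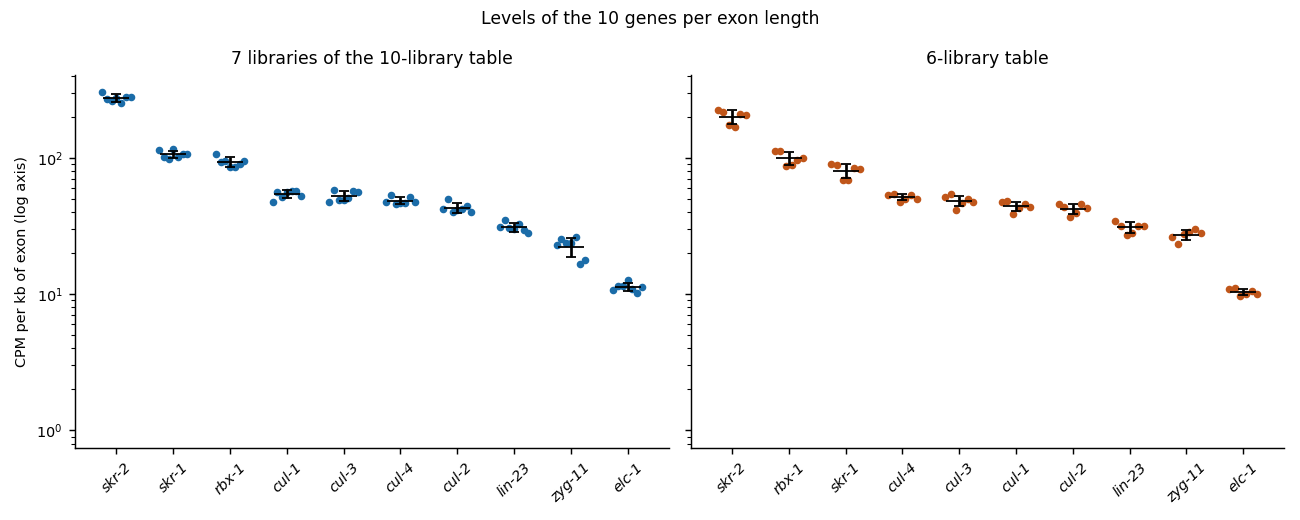
Levels of the 10 genes in CPM per kb of exon on a log axis, highest to lowest, for 7 libraries of the 10-library table (left, without control 1, control 3 and 48 h 1) and for the 6-library table (right); points are libraries, and bars are the mean with its SD. The adaptor skr-2 was highest and elc-1 lowest in both tables, with the 4 cullins in a narrow band between 42.4 and 54.2 CPM per kb on average.

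The cullin genes were lower in the 3 libraries with a high ribosomal share than in the rest of their groups. For cul-1, the scaffold that TIR1 ligases use, the controls had 65.0, 148, 72.9 and 136 CPM, the 2 h libraries 124 and 146 CPM, and the 48 h libraries 83.6, 135, 146 and 148 CPM. The low values were control 1, control 3 and 48 h 1, and the other 7 libraries overlapped across all 3 times. The cul-2 gene had 53.7, 139, 66.7 and 126 CPM in controls, 133 and 159 CPM at 2 h, and 81.2, 126.98, 131 and 134 CPM at 48 h. For cul-3, whose product works with BTB-domain receptors, the values were 84.0, 181, 99.7 and 178 CPM in controls, 151 and 185 CPM at 2 h, and 106, 156, 154 and 162 CPM at 48 h. The same 3 libraries were lowest for these genes too. The cul-4 gene, scaffold of the DDB-1 ligases, had 83.2, 143, 83.9 and 131 CPM in controls, 131 and 147 CPM at 2 h, and 99.5, 126.9, 128.995 and 128.9 CPM at 48 h, and its 2 h libraries lay above every 48 h library.

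The short genes did not share that pattern to the same degree. The rbx-1 gene, which encodes the RING subunit common to these ligases, had 51.3, 54.4, 55.2 and 57.3 CPM in controls, 64.8 and 56.3 CPM at 2 h, and 62.2, 57.2, 51.6 and 51.8 CPM at 48 h. For skr-2 the values were 177, 211, 198 and 212 CPM in controls, 233 and 206 CPM at 2 h, and 211, 199.8, 208 and 192 CPM at 48 h. The skr-1 gene had 62.0, 92.0, 76.5 and 92.8 CPM in controls, 99.1 and 87.1 CPM at 2 h, and 87.9, 85.4, 99.9 and 88.3 CPM at 48 h. Groups overlapped for all 3 of these genes. The elc-1 gene, of intermediate length, had 9.56, 18.6, 13.8 and 20.6 CPM in controls, 19.6 and 21.04 CPM at 2 h, and 13.1, 21.02, 23.2 and 19.8 CPM at 48 h, again with control 1, control 3 and 48 h 1 lowest.

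Of the receptors, zyg-11 had 31.5, 46.9, 31.2 and 50.5 CPM in controls, 64.8 and 71.1 CPM at 2 h, and 58.5, 66.6, 67.0 and 74.1 CPM at 48 h. Every library with auxin was above every control, the high-ribosomal 48 h 1 included. The F-box receptor gene lin-23 had 46.4, 84.5, 47.7 and 81.0 CPM in controls, 89.9 and 100.6 CPM at 2 h, and 70.3, 88.6, 86.7 and 93.7 CPM at 48 h. Its 2 h libraries were above every control, while 48 h 1 fell among the controls. Control 1, control 3 and 48 h 1 were again the lowest libraries for lin-23.

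**Figure D2:**
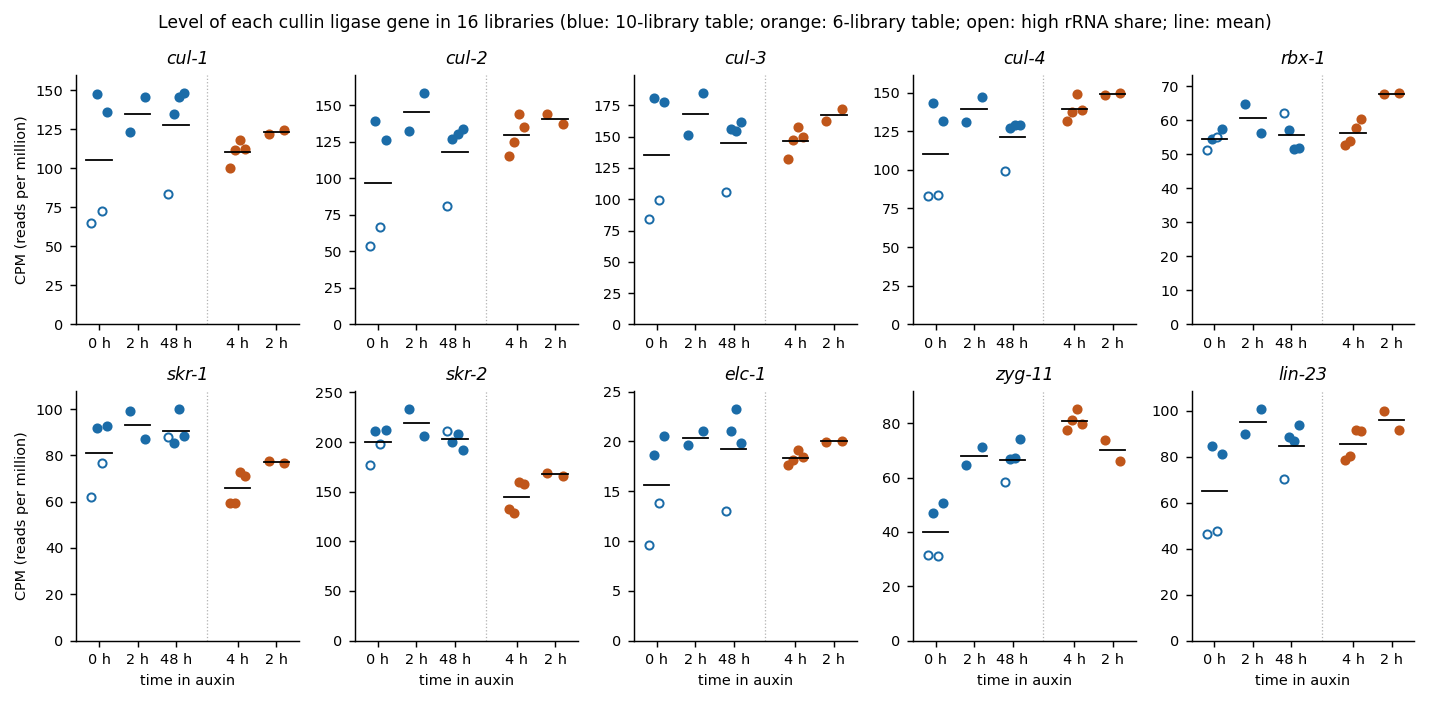
CPM of each of the 10 genes by time in auxin, 1 point per library, with the 10-library table in blue and the 6-library table in orange; open points are control 1, control 3 and 48 h 1, and lines are group means. The open points are the lowest of the 10-library table for the cullins, elc-1 and lin-23, and zyg-11 is the gene whose auxin libraries all lie above its controls.

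The drop in those 3 libraries was larger, on the whole, for the long genes. Relative to the mean of controls 2 and 4 on the log2(CPM + 1) scale, control 1 was lower by -1.29 for cul-2 and -1.12 for cul-1, and of the short genes by -0.57 for skr-1, -0.26 for skr-2 and -0.12 for rbx-1. In control 3 the differences were -0.98 for cul-2 and -0.95 for cul-1, against -0.27 for skr-1, -0.10 for skr-2 and -0.02 for rbx-1. Relative to the other 48 h libraries, 48 h 1 differed by -0.76 for cul-1 and -0.68 for cul-2, but by -0.05 for skr-1, 0.08 for skr-2 and 0.21 for rbx-1. The short skr-1 thus came close, in control 1, to the long zyg-11 (-0.61). Each library was then centred on its median, and each gene on its own mean over the table. On that scale the 6 genes longer than 2.5 kb differed on average from the 3 shorter than 1 kb by -0.49, -0.55 and -0.33 (log2) in control 1, control 3 and 48 h 1. In the other 7 libraries the differences were -0.01 to 0.38. Within the long genes the drop was smallest for zyg-11, at -0.61 and -0.63 in control 1 and control 3. Ribosomal share, gene length and level thus moved together in these libraries, and their part in the comparisons with controls was not tested, so each such comparison is given below with and without them and with the length trend removed.

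**Figure D3:**
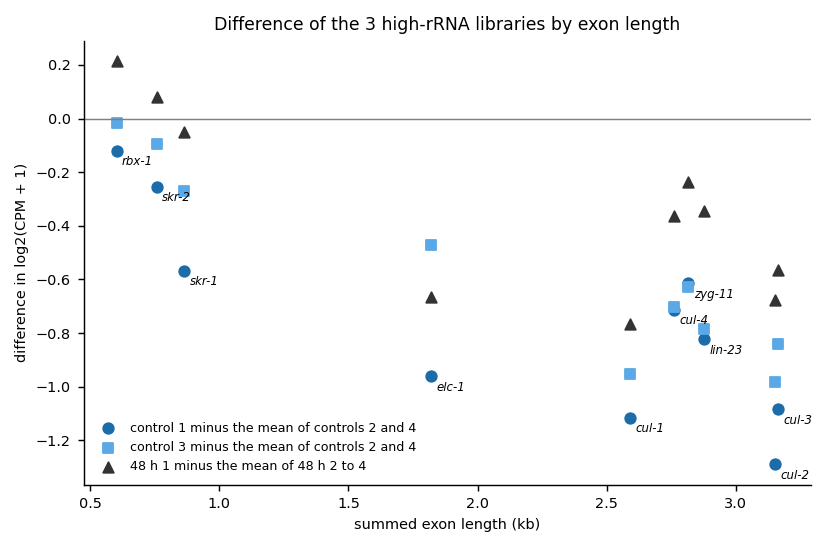
Difference in log2(CPM + 1) of control 1 and control 3 from the mean of controls 2 and 4, and of 48 h 1 from the mean of 48 h 2 to 4, for each of the 10 genes against its summed exon length in kb. The short genes lie between -0.57 (skr-1 in control 1) and 0.21, and the long genes between -1.29 and -0.24, so the ranges overlap.

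After 2 h of auxin, no gene of the set passed the limma test against control as deposited. The receptors zyg-11 and lin-23 were the members whose groups did not overlap, at a rate close to that of all genes. The zyg-11 level was 67.9 ± 4.52 CPM (SD, n = 2) at 2 h and 40.0 ± 10.2 CPM (SD, n = 4) in controls, a log2 fold change of 0.78 ± 0.21 (SE). The lin-23 level was 95.2 ± 7.59 CPM (SD, n = 2) at 2 h and 64.9 ± 20.7 CPM (SD, n = 4) in controls, a log2 fold change of 0.60 ± 0.26 (SE). The adjusted p values of the 10 genes were 0.520 to 0.559 (limma on log2(CPM + 1), Benjamini-Hochberg over all genes tested). limma called 0 of the 10 genes, beside 0% of the 7684 genes tested. The 2 members with an unadjusted p below 0.05 were zyg-11 and lin-23, beside 429 of all 7684 genes. With edgeR, run on recovered reads, calls came to 0 members and 0% of all genes, while DESeq2 called zyg-11 (adjusted p = 0.000336) and 0.377% of all genes. All 10 genes passed the filter on low values. Having both 2 h libraries above all 4 controls, as zyg-11 and lin-23 did, was shared by 17.8% of all genes tested, so 2 of 10 is close to the share in the background.

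The remaining members had positive log2 fold changes at 2 h as deposited, on a scale where the median of all genes was 0.24, but rbx-1, skr-1 and skr-2 were at -0.15, -0.08 and -0.16 after median centring. As deposited the values were 0.69 ± 0.37 (SE) for cul-2, 0.44 ± 0.36 for cul-1, 0.38 ± 0.32 for cul-3 and 0.37 ± 0.24 for cul-4, and the 95% interval of cul-1 ran from -0.35 to 1.23. The short genes had smaller values, 0.22 ± 0.18 (SE) for skr-1, 0.15 ± 0.14 for rbx-1 and 0.14 ± 0.14 for skr-2, and elc-1 had 0.41 ± 0.29. The median of the 10 was 0.40 as deposited, and after centring it was 0.10, beside -0.05 over all genes. Without control 1, control 3 and 48 h 1, the median of the 10 was 0.05 and that of all genes 0.02, zyg-11 kept a log2 fold change of 0.47 ± 0.08 (SE) and passed (limma, adjusted p = 0.0291, beside 0.342% of all genes), and lin-23 had 0.20 ± 0.08 (adjusted p = 0.568). With control 1 and control 3 alone left out, the zyg-11 fold was the same 0.47 with limma's adjusted p at 1.00 and 0% of all genes called. In both of these fits the cullins lay between -0.10 (cul-3) and 0.13 (cul-2). With the length trend removed and all libraries kept, the zyg-11 log2 fold change was 0.36, the highest of the members. The median of the 10 was then 0.07, beside -0.02 over all genes. In that fit limma called 0 of the 10 (smallest adjusted p = 0.602), beside 0.0651% of all genes.

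After 48 h of auxin, zyg-11 was higher than in controls and was the 1 member called. It had 66.6 ± 6.39 CPM (SD, n = 4) at 48 h and 40.0 ± 10.2 CPM (SD, n = 4) in controls, a log2 fold change of 0.75 ± 0.17 (SE) with a 95% interval of 0.36 to 1.14, or 1.68-fold (limma, adjusted p = 0.0238). Among all genes tested 10.05% were called in this comparison and 7.34% were called higher, so 1 of 10 is close to the share in the background. The 4 libraries at 48 h did not overlap the 4 controls, as was so, in this direction, for 14.9% of all genes. The zyg-11 fold change lay above that of 97.6% of all genes tested.

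The zyg-11 call depended on the libraries kept. Leaving out control 3 gave an adjusted p of 0.0717, and leaving out 48 h 2, 48 h 3 or 48 h 4 gave 0.0655, 0.0719 and 0.0800 (limma), while without 48 h 1 it was 0.0313. Without controls 1 and 3 the log2 fold change was 0.44 ± 0.11 (SE) with an adjusted p of 0.0513 (7.07% of all genes called), and without 48 h 1 as well it was 0.50 ± 0.08 with an adjusted p of 0.000479 (23.98% called). After median centring it was 0.47 ± 0.07 (adjusted p = 0.00291, 10.9% of all genes called) and with the length trend removed 0.37 ± 0.10 (adjusted p = 0.0232, 19.8% called), so the size of the change was smaller on these scales than as deposited while its direction held. edgeR and DESeq2 also called zyg-11 (adjusted p = 0.00242 and 1.36e-07), beside 11.6% and 16.3% of all genes. The neighbour hda-2, a histone deacetylase gene that meets zyg-11 tail to tail on the other strand, had 56.5, 50.2, 54.9 and 58.2 CPM at 48 h and 32.3, 40.6, 35.6 and 41.5 CPM in controls, and was also called (log2 fold change 0.54 ± 0.12 SE, limma adjusted p = 0.0169), and again without the 3 high-ribosomal libraries (0.40, adjusted p = 0.00302), but not with the length trend removed (0.25, adjusted p = 0.111) or after centring (0.26, adjusted p = 0.152). At 2 h of this table hda-2 was also above every control, at 46.6 and 50.7 CPM (0.37, limma adjusted p = 0.520). In the 6-library table it had 50.6 to 51.8 CPM at 4 h, above 50.2 and 45.7 CPM at 2 h (0.09, limma adjusted p = 0.534). Such separation held, in these directions, for 17.8% and 6.16% of all genes. The 4 somatic gonad markers (lim-7, inx-8, inx-9 and ceh-18) summed to 56.5 to 65.7 CPM at 48 h and 39.2 to 46.4 CPM in controls, with 3 of the 4 at or above 1 CPM in every library and none at 0. Most of that sum was inx-8, at 27.9 to 55.1 CPM over all 16 libraries, against 0.168 to 8.47 CPM for the other markers. The part of hda-2 or of these markers in the zyg-11 results was not tested.

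None of the other 9 genes was called at 48 h as deposited. Their log2 fold changes against control were 0.43 ± 0.21 (SE) for lin-23, 0.37 ± 0.30 for cul-2, 0.33 ± 0.29 for cul-1, 0.17 ± 0.20 for cul-4, 0.15 ± 0.26 for cul-3, 0.31 ± 0.23 for elc-1, 0.18 ± 0.15 for skr-1, and 0.03 ± 0.11 and 0.03 ± 0.12 for rbx-1 and skr-2. The median of the 10 was 0.24, equal to the 0.24 over all genes tested, and after median centring cul-3, cul-4, rbx-1, skr-1 and skr-2 were below 0 (-0.25 to -0.11). For the TIR1 partners the 95% intervals as deposited were -0.31 to 0.98 for cul-1, -0.22 to 0.27 for rbx-1, -0.15 to 0.50 for skr-1 and -0.24 to 0.29 for skr-2. As folds these were 0.805 to 1.97 for cul-1, 0.858 to 1.21 for rbx-1, 0.899 to 1.42 for skr-1 and 0.850 to 1.22 for skr-2. These limits hold for the deposited scale, and after median centring rbx-1 and skr-2 were each at -0.25. With the length trend removed, cul-3 was called lower at 48 h than in controls (log2 fold change -0.23 ± 0.04 SE, limma adjusted p = 0.00310), against 0.15 as deposited, and cul-4 had -0.21 ± 0.07 (adjusted p = 0.0538). Without the 3 libraries cul-3 was at -0.19 ± 0.08 (adjusted p = 0.111). With the 3 libraries left out and the length trend removed as well, a setting chosen after seeing the data, limma called zyg-11 higher and cul-3, cul-4 and skr-2 lower at 48 h than in controls, beside 36.2% of all genes, and zyg-11 and lin-23 higher at 2 h than in controls, beside 1.83%.

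**Figure D4:**
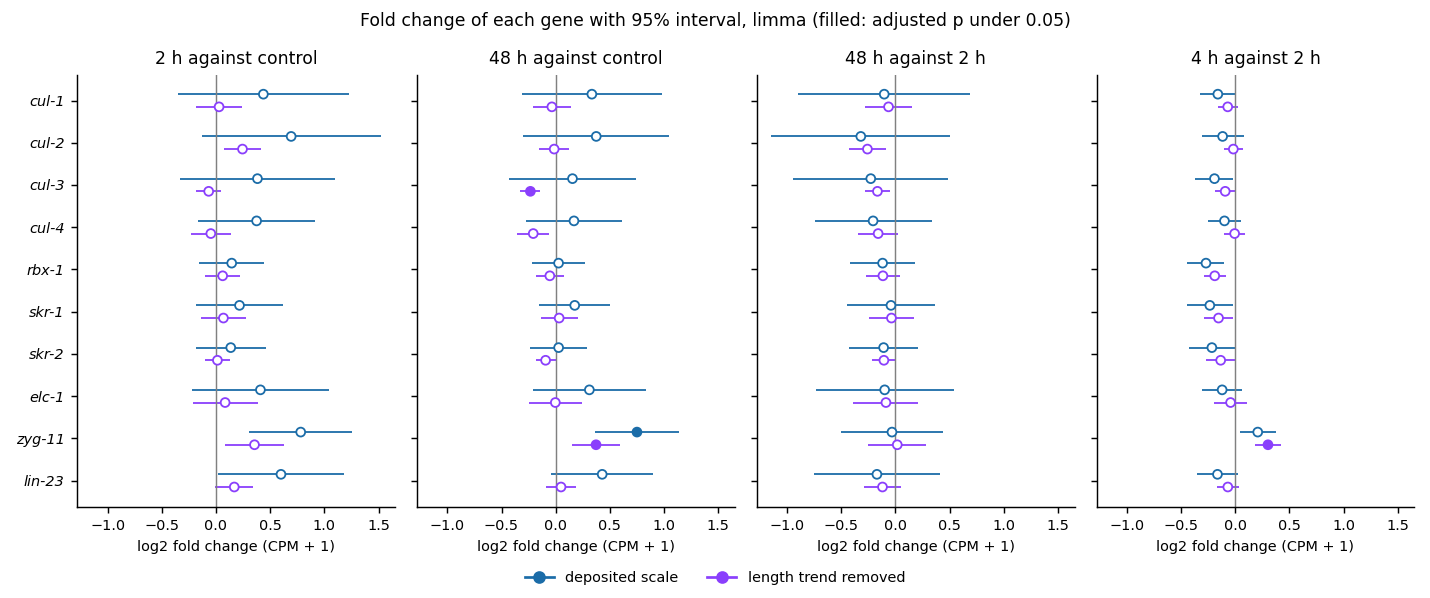
Log2 fold change of each gene in 4 comparisons with its 95% interval from limma, as deposited (blue) and with the length trend of each library removed (violet); filled points have an adjusted p under 0.05. Intervals of the cullins, elc-1 and the receptors narrow once the length trend is removed, and zyg-11 stays above 0 in both comparisons with control and at 4 h against 2 h.

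Between 48 h and 2 h within the 10-library table, 0 of the 10 genes were called (limma, adjusted p = 0.999 for each), beside 2.85% of all genes tested. An unadjusted p under 0.05 was found for 0 members, beside 914 of all 7684 genes. edgeR and DESeq2 called 0 as well, beside 4.93% and 7.47% of all genes. The log2 fold changes ran from -0.32 ± 0.37 (SE) for cul-2 to -0.03 ± 0.21 for zyg-11, with a median of -0.11, beside -0.02 over all genes. The zyg-11 level was thus 66.6 ± 6.39 CPM (SD, n = 4) at 48 h and 67.9 ± 4.52 CPM (SD, n = 2) at 2 h, and the 95% interval of the log2 difference was -0.51 to 0.44. For cul-4 all 4 libraries at 48 h lay below both at 2 h, which held in this direction for 14.8% of all genes. Without the 3 high-ribosomal libraries and with the length trend removed, limma called cul-2, cul-3, cul-4, skr-2 and lin-23 lower at 48 h than at 2 h, 5 of 10 beside 32.1% of all genes. The comparisons at 2 h and 48 h share their controls, and this one shares its libraries with both.

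At 4 h of auxin, within the 6-library table, zyg-11 was the member above its 2 h level, and 6 others lay below theirs in every library. Groups lay apart in this way, without overlap, in 6.16% of all genes for higher and 24.02% for lower at 4 h. The zyg-11 gene had 77.4, 81.0, 85.1 and 79.8 CPM at 4 h, against 73.9 and 66.0 CPM at 2 h, a log2 fold change of 0.21 ± 0.08 (SE). Its 4 libraries at 4 h lay above both at 2 h. It did not pass as deposited (limma, adjusted p = 0.238), and it passed with median centring (0.29 ± 0.06, adjusted p = 0.0229), with the length trend removed (0.30 ± 0.06, adjusted p = 0.0146), with edgeR (adjusted p = 0.0254) and with DESeq2 (adjusted p = 0.00244).

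The RING subunit and adaptor genes had every 4 h value below both 2 h values, though none passed with limma as deposited and without a replicate block. The rbx-1 gene had 52.6, 53.8, 57.8 and 60.3 CPM at 4 h and 67.6 and 68.0 CPM at 2 h, a log2 fold change of -0.27 ± 0.08 (SE). The skr-1 gene had 59.4, 59.4, 72.7 and 71.2 CPM at 4 h and 77.6 and 76.7 CPM at 2 h (-0.23 ± 0.10), and skr-2 had 133, 128.7, 160.2 and 158 CPM at 4 h and 169 and 166 CPM at 2 h (-0.22 ± 0.10). In all 3 genes 4 h 1 and 4 h 2 were the lower pair of the 4 h group. Ribosomal RNA took 44.7% of 4 h 1 and 41.6% of 4 h 2. Its share was 37.8% in 4 h 3, 38.6% in 4 h 4, 38.1% in 2 h 3 and 39.1% in 2 h 4. The part of the ribosomal share in the comparisons at 4 h was not tested. The elc-1 gene had 17.6, 18.1, 19.2 and 18.4 CPM at 4 h and 19.9 and 20.1 CPM at 2 h (-0.12 ± 0.08), also without overlap.

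Among the cullins, cul-1 and cul-3 were without overlap and cul-2 and cul-4 overlapped. The cul-1 gene had 100.3, 112, 118 and 112 CPM at 4 h and 122 and 125 CPM at 2 h (log2 fold change -0.16 ± 0.08 SE), and cul-3 had 132, 147, 158 and 149.9 CPM at 4 h and 163 and 172 CPM at 2 h (-0.19 ± 0.08). The cul-2 gene had 116, 125, 144 and 135 CPM at 4 h and 144 and 137 CPM at 2 h (-0.12 ± 0.09), and cul-4 had 131, 137, 149 and 139 CPM at 4 h and 148 and 149.7 CPM at 2 h (-0.10 ± 0.07). In every cullin 4 h 1, with the highest ribosomal share of the 6-library table, was the lowest library. In none of the cullins did the fold change pass as deposited. For lin-23, with 78.5, 80.3, 91.7 and 91.3 CPM at 4 h and 99.8 and 91.7 CPM at 2 h (-0.16 ± 0.09), the groups overlapped as well.

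limma called 0 of the 10 genes at 4 h (adjusted p 0.180 to 0.525), beside 0.384% of the 7301 genes tested. An unadjusted p under 0.05 was found for 5 members (cul-3, rbx-1, skr-1, skr-2 and zyg-11), beside 1133 of all 7301 genes. edgeR called 2 members, rbx-1 lower (adjusted p = 0.0461) and zyg-11 higher, beside 3.19% of all genes, and DESeq2 called zyg-11, beside 4.63%. The fits with centring and with the length trend removed called zyg-11, beside 2.26% and 3.77%. The median of the 10 was -0.16, beside -0.07 over all genes, and after centring it was -0.08. The fold of zyg-11 was above that of 95% of all genes tested.

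Ratios between members within a library do not depend on the library's total, and those given here were chosen after their values were seen, so they carry no test. The receptors zyg-11 and lin-23 have nearly equal exon lengths (2.816 and 2.878 kb). The zyg-11 to lin-23 ratio was 0.679, 0.554, 0.654 and 0.624 in controls, 0.721 and 0.707 at 2 h, and 0.833, 0.752, 0.773 and 0.791 at 48 h in the 10-library table. All 3 times were apart from each other in this ratio, with the high-ribosomal libraries at the upper end of their groups. In the 6-library table it was 0.986, 1.01, 0.929 and 0.874 at 4 h and 0.741 and 0.720 at 2 h, again without overlap. The ratio of zyg-11 to its own scaffold gene cul-2 was 0.586, 0.336, 0.467 and 0.400 in controls, 0.488 and 0.449 at 2 h, and 0.721, 0.525, 0.513 and 0.553 at 48 h, with overlap between controls and both auxin times. At 4 h it was 0.669, 0.650, 0.590 and 0.590, against 0.514 and 0.481 at 2 h of that table.

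The ratio of skr-2 to skr-1 was 2.51 ± 0.272 (SD, n = 4) in controls, 2.36 ± 0.00787 (SD, n = 2) at 2 h and 2.25 ± 0.146 (SD, n = 4) at 48 h, and the controls spanned 2.29 to 2.86. In the 6-library table it was 2.20 ± 0.0285 (SD, n = 4) at 4 h and 2.17 ± 0.0138 (SD, n = 2) at 2 h. The adaptor pair therefore kept a ratio between 2.09 and 2.86 in all 16 libraries. Among the 4 cullins, each gene held between 17.3% (cul-2 in control 1) and 30.5% (cul-4 in control 1) of their summed level per kb, so no cullin dominated the scaffold RNA at any time. The adaptors skr-1 and skr-2 together had 5.54 to 12.4 times the level per kb of cul-1, the higher values being those of the high-ribosomal libraries.

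**Figure D5:**
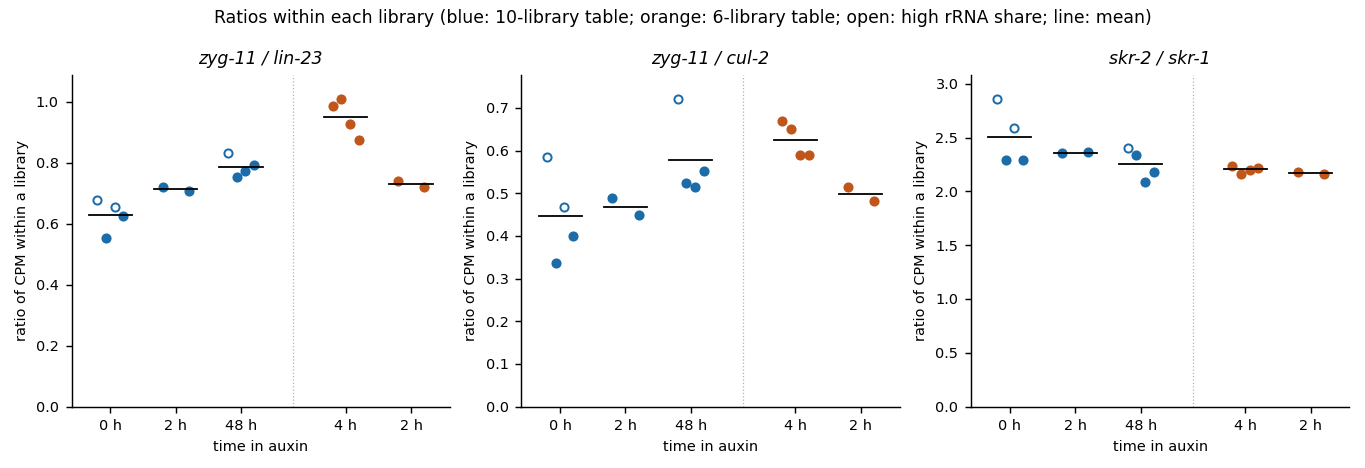
Ratio of CPM within each library for zyg-11 to lin-23, zyg-11 to cul-2 and skr-2 to skr-1, by time in auxin; blue is the 10-library table, orange the 6-library table, open points control 1, control 3 and 48 h 1, and lines are group means. The zyg-11 to lin-23 ratio separates controls (0.554 to 0.679), 2 h (0.707 and 0.721) and 48 h (0.752 to 0.833), while the skr-2 to skr-1 ratio stays between 2.09 and 2.86.

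The likeness of patterns over the 10-library table was measured as the root-mean-square difference of library values of log2(CPM + 1), with each library centred on its median and each gene on its mean, as a description. The closest pair was rbx-1 and skr-2 (0.0711), which are both short, and skr-2 was also nearest to skr-1 (0.118). The cullins were nearest to each other: cul-1 to cul-3 (0.109), cul-2 to cul-1 (0.111) and cul-4 to cul-3 (0.117). The elc-1 gene was nearest to cul-3 (0.149) and lin-23 to cul-4 (0.129). The zyg-11 gene had the least close nearest member, lin-23 at 0.163, and the pair farthest apart was cul-2 and rbx-1 (0.488). Of 5511 candidate genes with a mean of at least 5 CPM, the 3 most like cul-1 were prp-6 (0.0283), copa-1 (0.0308) and C25H3.11 (0.0317), and cul-3 ranked 554 among them. All of these values include the pattern of the 3 high-ribosomal libraries.

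Around the 10 genes, 75 further genes of the pathway were examined in 6 lists, of which 55 were tested in the 10-library table and 54 in the 6-library table. Among the other cullins and RING subunits, cul-5 (58.7 CPM in controls), the anaphase-promoting complex scaffold apc-2 (113 CPM) and rbx-2 (8.04 CPM) were expressed, and cul-6 (0.206 CPM) was too low to test. Of 21 other adaptors 17 SKP1 homologs were too low to test, 7 of them at 0 in every library of the 10-library table, while ddb-1, the CUL-4 adaptor, had 391 CPM, skr-17 had 29.8 CPM, skr-18 had 16.03 CPM and elb-1, the elongin B gene, had 11.2 CPM in controls.

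At 2 h against control 0 of the 55 genes were called by limma as deposited and 0 by edgeR, beside 0% of all genes with either tool. Of the 55, 7 had an unadjusted p under 0.05, beside 429 of all 7684 genes, and their median log2 fold change was 0.33, beside 0.24 over all genes. The gene cpb-3 was called at 2 h with the length trend removed and without the 3 high-ribosomal libraries. At 48 h against control, limma as deposited called 3 of the 55 higher and 1 lower, beside 10.05% of all genes, and 15 had an unadjusted p under 0.05, beside 2208 of all 7684. The median of the 55 was 0.27, beside 0.24 over all genes, so the counts and the median were at or near the background. The counts varied with the setting: edgeR called 5 higher and 3 lower, beside 11.6% of all genes, and without the 3 high-ribosomal libraries limma called 10 higher and 4 lower, beside 23.98%. Of 15 tested receptors, the F-box genes prom-1, which acts in meiotic entry and chromosome pairing, and fsn-1, known from neurons, were higher, and the Kelch-repeat gene kel-8 was lower. The prom-1 level was 52.9 ± 5.92 CPM at 48 h and 23.8 ± 5.12 CPM in controls (SD, n = 4 each), which is 1.14 ± 0.16 on the log2 scale (SE; limma, adjusted p = 0.00278). The fsn-1 level was 50.1 ± 0.936 CPM at 48 h and 29.3 ± 5.404 CPM in controls (0.77 ± 0.13, adjusted p = 0.00724). The kel-8 level was 2.74 ± 0.506 CPM at 48 h and 6.54 ± 2.35 CPM in controls (-0.97 ± 0.21, adjusted p = 0.0196), and at 48 h it was also below its 2 h level of 9.18 ± 1.87 CPM (SD, n = 2), with -1.44 ± 0.26 (adjusted p = 0.0154). The 48 h libraries lay above every control for prom-1 and fsn-1, which held in this direction for 14.9% of all genes tested. For kel-8 the 48 h libraries lay below both 2 h libraries, which held in this direction for 14.8%.

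Of 11 tested genes for known ligase substrates, limma as deposited called 1 at 48 h against control, cpb-3, a germline RNA-binding protein gene. It was higher at 48 h, with 133 ± 15.9 CPM at 48 h and 76.9 ± 26.8 CPM in controls (SD, n = 4 each), which is 0.84 ± 0.23 on the log2 scale (SE, limma, adjusted p = 0.0461). Also, cyb-1 (higher) and cdc-25.1 (lower) were called by edgeR, after centring, with the length trend removed and without the 3 high-ribosomal libraries. Under the same settings apc-2, of the cullin and RING list, was called lower. These settings called 11.6%, 10.9%, 19.8% and 23.98% of all genes. Removing the length trend also called tra-1 lower. Leaving out the 3 libraries also called pie-1, mex-1 and the receptor genes mec-15 and wdr-23 higher. With limma as deposited, 0 of 14 tested genes of the NEDD8 and COP9 signalosome system, which switch cullins on and off, and 0 of 7 for ubiquitin and its E1 and E2 enzymes were called at 48 h against control (3 and 1 at an unadjusted p under 0.05). Other settings called some of them. In the NEDD8 list these were ubc-12 higher with the length trend removed and csn-3 higher without the 3 high-ribosomal libraries. In the ubiquitin list ubc-1 was called higher by edgeR, after centring, with the length trend removed and without the 3 libraries, uba-1 lower with the length trend removed, and let-70 lower without the 3 libraries. As deposited, the smallest p values of these lists belonged to ubc-12, the NEDD8-conjugating enzyme gene (0.44 ± 0.13, adjusted p = 0.0569), and ubc-1 (0.66 ± 0.19, adjusted p = 0.0543). At 48 h against 2 h, kel-8 was the 1 gene of 55 called by limma as deposited, beside 2.85% of all genes, and 3 had an unadjusted p under 0.05, beside 914 of all 7684. There edgeR called 1 higher and 3 lower, beside 4.93%, and without the 3 high-ribosomal libraries limma called 8 higher and 4 lower, beside 20.5%. At 4 h against 2 h, 0 of 54 were called by limma as deposited, beside 0.384% of all genes, and 15 had an unadjusted p under 0.05, beside 1133 of all 7301. There edgeR called 5, beside 3.19% of all genes, ddb-1, prom-1, fsn-1 and cyb-1 higher and dcn-1 lower. The prom-1 gene had 47.6 ± 2.86 CPM (SD, n = 4) at 4 h and 38.6 ± 3.95 CPM (SD, n = 2) at 2 h, and dcn-1, a NEDD8 ligase gene, had 39.8 ± 2.05 CPM (SD, n = 4) at 4 h and 49.3 ± 0.273 CPM (SD, n = 2) at 2 h.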

How the data were processed

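The authors' deposited values are a signal per gene in CPM, in 2 tables, per the file headers and labels. Per the submitters' processing notes, which give no settings, the tools included featureCounts 1.4.5 of Subread, STAR 2.0.4b, limma and edgeR; build, annotation, strand setting and handling of multiply matching reads were not given in the sources used here. Of 46998 lines 46536 genes remained after identical repeated lines were merged; deposited columns summed to 1020920 to 1035945. The values came out as whole reads (100% of them, tolerance 0.1 read), which allowed reads to be recovered. A count of 0 allows 3 reads, 0.0885 to 0.169 CPM, for counting error only.

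limma 3.58.1 (R 4.3.3, mean-variance trend) was run on log2(CPM + 1), 2-sided, over genes with at least 1 CPM in 2 libraries, with an adjusted p threshold of 0.05; this scale understates the change of low genes. The libraries of a table shared 1 fit. The script was tested on simulated data. Gene positions came from the Ensembl annotation of WBcel235, which holds 46363 of the gene IDs; no source names it as the build used. The length trend was a lowess (span 0.5) over genes of at least 10 CPM, and median centring used the same genes. edgeR 4.0.16 and DESeq2 1.42.0 were run on recovered reads as alternatives; others were pseudocounts of 0.5 and 0.1, no filter, a filter of 5 CPM, a replicate block and libraries left out.

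Named genes are the 10 members, the called genes of each of 6 pathway lists (or that with the smallest p; the text gives a selection), and the member most like each member, with, for cul-1, the 3 genes most like it. The levels of list genes in controls, and the genes called only under an alternative, were named after their values were seen. The members and lists were chosen with earlier results of these data known.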

Additional observations from a re-analysis of the deposited data

Results flagged for a closer look

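In the 48 h group, 48 h library 1 stood far from the other 3 for 3 cullins. Its level was 81.2 CPM for cul-2 (126.98 to 134 CPM in the others), 106 CPM for cul-3 (154 to 162 CPM) and 99.5 CPM for cul-4 (126.9 to 128.995 CPM). The gap to the nearest library was 0.865, 0.866 and 0.929 of the range of the group, above the critical value of Dixon's test. Of 30 groups of 4 libraries examined, 3 were flagged, and chance gives about 1 in 20 for independent groups. These groups are not independent, because they are the members measured in the same libraries, and all 3 flags belong to 48 h 1. Ribosomal RNA took 44.9% of that library, and its part in these values was not tested.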

How the results depend on the processing

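The direction of zyg-11 against control held under every alternative run, at 2 h (0.36 to 0.90) and at 48 h (0.37 to 0.87), and so did that of every member at 4 h against 2 h. The settings that left out libraries by ribosomal share together with the length trend were chosen after seeing the data.

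At 2 h against control, 0 genes were called as deposited, 1 after median centring, 5 with the length trend removed, 29 by DESeq2, 26 without the 3 high-ribosomal libraries and 139 with both changes; members called were 1, 1 and 2 under the last 3, zyg-11 in each and lin-23 in the last. Leaving out single libraries gave 0 genes and 0 members. At 48 h against control, 772 genes were called as deposited, 383 with a filter of 5 CPM, 1524 with the length trend removed, 1255 by DESeq2, 1825 without the 3 libraries and 2753 with both changes, and 342 to 1050 when 1 library was left out (376 without control 3, 408, 342 and 354 without 48 h 2, 48 h 3 and 48 h 4). Members called were 2 with the length trend removed, 4 with both changes (zyg-11 higher; cul-3, cul-4 and skr-2 lower), 0 without controls 1 and 3, and 0 to 1 when 1 library was left out. At 48 h against 2 h, 219 genes were called as deposited, 42 with a filter of 5 CPM, 633 with the length trend removed, 379 by edgeR, 574 by DESeq2, 380 without controls 1 and 3, 1561 without the 3 libraries and 2444 with both changes, and 39 to 281 when 1 library was left out (47 without 2 h 1, 39 without 2 h 2, 126 to 140 without 48 h 2, 48 h 3 or 48 h 4); with both changes 5 members were called lower, cul-2, cul-3, cul-4, skr-2 and lin-23, and leaving out 1 library gave 0 members. At 4 h against 2 h, 28 genes were called as deposited, 9 with no filter, 165 after centring, 275 with the length trend removed, 233 by edgeR and 338 by DESeq2, and 4 to 237 when 1 library was left out (4 without 2 h 3, 6 without 2 h 4, 237 without 4 h 3, 10 without 4 h 4); members called were 1 after centring, 1 with the length trend removed, 2 by edgeR, 1 by DESeq2, and 0 when 1 library was left out. The cause of these moves was not tested.

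Small member values changed sign. At 2 h against control (log2), rbx-1, skr-1 and skr-2 were at -0.15, -0.078 and -0.16 after centring, -0.15, -0.062 and -0.15 by edgeR and -0.14, -0.059 and -0.15 by DESeq2. With the length trend removed cul-3 and cul-4 were at -0.067 and -0.048. Without controls 1 and 3, and likewise without all 3 libraries, cul-1 and cul-3 were at -0.080 and -0.098, and with both changes cul-1, cul-3, skr-1 and skr-2 were at -0.065, -0.071, -0.048 and -0.013. At 48 h against control, cul-3, cul-4, rbx-1, skr-1 and skr-2 were at -0.13, -0.11, -0.25, -0.11 and -0.25 after centring, -0.13, -0.10, -0.25, -0.093 and -0.25 by edgeR and -0.12, -0.10, -0.24, -0.092 and -0.25 by DESeq2. With the length trend removed cul-1, cul-2, cul-3, cul-4, rbx-1, skr-2 and elc-1 were at -0.036, -0.014, -0.23, -0.21, -0.054, -0.094 and -0.0036. Without controls 1 and 3, cul-1, cul-2, cul-3, cul-4, rbx-1, skr-1, skr-2 and elc-1 were at -0.18, -0.19, -0.33, -0.19, -0.0085, -0.034, -0.061 and -0.048. Without the 3 libraries cul-2, cul-3, cul-4, rbx-1, skr-1 and skr-2 were at -0.025, -0.19, -0.095, -0.062, -0.022 and -0.081, and with both changes cul-1, cul-2, cul-3, cul-4, rbx-1, skr-1 and skr-2 were at -0.057, -0.080, -0.24, -0.16, -0.10, -0.068 and -0.13. Leaving out 1 library gave -0.047 to 0.32 for cul-3, -0.027 to 0.061 for rbx-1 and -0.029 to 0.057 for skr-2. At 48 h against 2 h, zyg-11 was at 0.016 with the length trend removed, cul-1, elc-1 and zyg-11 were at 0.087, 0.067 and 0.027 without the 3 libraries, and cul-1 and elc-1 were at 0.0078 and 0.0055 with both changes. Leaving out 1 library gave -0.22 to 0.087 for cul-1, -0.19 to 0.067 for elc-1, -0.099 to 0.035 for zyg-11 and -0.13 to 0.051 for skr-1.

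The replicate numbers were not taken to pair the libraries: deviations of same-numbered control and 48 h libraries correlated at 0.69, 0.43, -0.42 and 0.58 for numbers 1 to 4. With the replicate number as a block, 0, 1083, 233 and 644 genes and 0, 1, 0 and 2 members were called at 2 h against control, 48 h against control, 48 h against 2 h and 4 h against 2 h; the 2 members at 4 h were rbx-1 (limma, adjusted p = 0.0154) and zyg-11 (adjusted p = 0.00158).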
